A study of Mus musculus with 5 samples.

Results

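The 9 genes described here are skeletal differentiation genes, and they were followed through a conversion in which mouse embryonic fibroblasts (MEFs) are driven towards neurons by a defined medium. They comprise 2 transcription factors of bone (Runx2 and Sp7), an enzyme and 2 matrix proteins of mineralizing bone (Alpl, Spp1 and Ibsp), and 4 cartilage matrix proteins other than collagens (Acan, Comp, Matn2 and Chad). They were chosen by name from the known regulators and matrix genes of the skeleton and matched to the deposited gene identifiers by symbol, which found 9 of 9 among 27729 genes. MEFs of the ICR strain were taken from mid-gestation embryos without head and internal organs, were passaged in serum medium, and were cleared of weakly attached cells. At day 0 the serum medium was replaced by 5C medium, which the labels call 6C and which is a DMEM/F12 base with N2, 2-mercaptoethanol, vitamin C, leukemia inhibitory factor and bFGF. Total RNA was sequenced at day 0 and then on days 2, 5, 10 and 14, with 1 library for each time point, and day 0 is the cell population before the change of medium. The treatment text in the labels ends 1 day later than the label of the last library, whose label is used here.

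Bone is laid down by osteoblasts, whose commitment depends on the transcription factor Runx2 and, downstream of it, on Sp7 (osterix). Osteoblasts then make alkaline phosphatase, which removes an inhibitor of mineral growth, and acidic matrix proteins that bind mineral and cell surface integrins. Cartilage is made by chondrocytes under the control of Sox9, and its matrix is built from type II collagen and aggrecan, linked by adaptor proteins such as cartilage oligomeric matrix protein (Comp) and the matrilins. Several of these genes are also used outside the skeleton: osteopontin (Spp1) is made by macrophages, and matrilin-2 (Matn2) by skin, muscle and peripheral nerve.

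With 1 library per time point no difference has a replicate check, and no p-value is given. Levels are given as normalized counts, which are RSEM's expected counts scaled by an effective size of each library, and changes as log2 ratios of the normalized counts plus 1. The interval printed after a change is an exact 95% Clopper-Pearson interval of the 2 counts without the added 1. It covers counting error only, since 1 library per time point gives no spread between cultures. The reads carry no molecular identifiers, so copies of the same molecule were not told apart and the interval may be too narrow. A gene is said to have risen or fallen where it changed over 2-fold and its interval excluded 0, with a count of 0 set to a floor of 3 counts, and such a statement compares libraries and not conditions. A fold given as at least some value sets only the count of 0 to the floor and takes the other count as it stands, so the counting interval can reach nearer to 0. In RNA from a whole culture, fewer cells of a type and less RNA per cell cannot be told apart. The libraries held between 2253716 and 3890310 counts, so that 3 counts, the limit that a count of 0 allows, are a share of between 0.771 and 1.33 per 1000000. The day 2 library was the shallowest, and its 10 most abundant genes held 14.2% of the counts, against 6.30% to 8.57% in the other 4 libraries. The gene Gm42418 alone held 4.79% of the day 2 counts, against 0.0484% to 0.109% in the other 4. Of the genes that define the labelled cell type, the type I collagen gene Col1a1 stood between 6390 and 22717 and Col1a2 between 7444 and 14138 normalized counts in the 5 libraries. The summed level of 11 fibroblast markers was lowest on day 5, at 27671 normalized counts, and highest on day 14, at 52129. On day 14, 6 of the 11 had risen and 3 had fallen, Thy1 (-1.39), Twist2 (-2.71) and S100a4 (-2.41).

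Where the RefSeq table held them, promoters of members that carry the main patterns are shown first. They are 250 bases before a RefSeq start site in GRCm38.p6 or, for Ibsp, the stretch of them before the first annotated exon. Runx2 is shown otherwise, as given below. Runx2 and Spp1 are shown because both rose and both have a window with the letters of a RUNX motif. The other Spp1 window has no such letters and is not shown. Ibsp is shown because it lies in the same gene cluster as Spp1, and Acan because it fell. For Runx2, whose window lies largely within an annotated exon of the gene, only the 30 bases around the motif letters are shown. These bases and the motif letters lie inside that exon. Capitals mark the RUNX letters, here ACCACA, the reverse complement of TGTGGT.
Runx2, chr17:44814690-44814719, minus strand: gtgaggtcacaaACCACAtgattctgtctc
Spp1, chr5:104434861-104435110, plus strand: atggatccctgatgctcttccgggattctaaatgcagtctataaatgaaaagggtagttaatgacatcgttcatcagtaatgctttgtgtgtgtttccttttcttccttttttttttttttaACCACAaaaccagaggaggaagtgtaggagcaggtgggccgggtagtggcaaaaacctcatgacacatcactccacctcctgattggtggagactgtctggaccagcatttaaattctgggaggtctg
Ibsp, chr5:104299037-104299170, plus strand: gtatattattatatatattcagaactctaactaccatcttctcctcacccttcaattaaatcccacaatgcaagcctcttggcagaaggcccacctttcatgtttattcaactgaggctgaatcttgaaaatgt
Acan, chr7:79052976-79053225, plus strand: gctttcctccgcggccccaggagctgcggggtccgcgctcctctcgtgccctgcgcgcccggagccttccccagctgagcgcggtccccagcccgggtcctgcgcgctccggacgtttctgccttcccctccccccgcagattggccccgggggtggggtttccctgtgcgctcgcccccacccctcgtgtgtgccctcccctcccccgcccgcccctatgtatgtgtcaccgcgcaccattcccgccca

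Of the 9 members, 6 had a promoter in the RefSeq table, with 8 start sites between them. Sp7, Comp and Matn2 had none, so the promoters of Comp and Matn2, which rose, could not be searched. Their windows of 250 bases were searched on both strands for the RUNX letters TGTGGT or TGCGGT and for the SOX letters ACAAAG or ACAAT, and no base was shared between a RUNX and a SOX match. The RUNX letters lay in 3 of the 8 windows, against 18.6% of all 32851 promoters in the table. The matches began 80 bases before the RefSeq start in Runx2, within an annotated exon of that gene. They began 128 bases before the start in the first promoter of Spp1, and 45 bases before it in Chad, where they read TGCGGT. The SOX letters lay in 6 of the 8 windows, against 38.8% of all promoters. They were found in Runx2, Alpl, Spp1 and Ibsp, and not in the windows of Acan and Chad. With so few windows these are descriptions of letters, and no binding was measured.

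The 9 genes did not move as a group. Over the 2 weeks Spp1, Matn2, Comp and Runx2 rose, Acan fell, and Sp7, Alpl, Ibsp and Chad had at most 10 expected counts in any library. On day 2, 3 of the 9 members stood over 2-fold above day 0 and 2 over 2-fold below, where 15.2% and 13.1% of 13346 expressed genes did so, a gene being called expressed where any library held at least 10 of its expected counts. On day 5 the numbers were 3 above and 3 below, beside 20.2% and 13.6% of the expressed genes. On day 10 there were 5 above and 3 below, beside 28.7% and 22.3%, and on day 14 again 5 above and 3 below, beside 24.5% and 19.9%. These counts include Chad on day 10, which had 2 expected counts against 0, and other changes that rest on a few counts. They run over all 9 members, of which only 6 were expressed by this rule. Sp7, Alpl and Chad were not, so they are not among the genes behind the shares. Of the members below day 0, only Acan is.

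The stricter reading, in which the interval had to exclude 0 and a count of 0 was set to the floor, left fewer members. The shares of expressed genes that rose or fell by it, given here for each day, are also the background for every gene list. Spp1 and Matn2 rose and Acan fell on day 2, when 11.6% of the expressed genes rose and 10.0% fell. On day 5 Spp1, Comp and Matn2 rose and Acan fell, beside 17.1% and 12.9% of all genes. On day 10 Runx2, Spp1, Comp and Matn2 rose and Sp7 and Acan fell, beside 26.5% and 21.8%. On day 14 the 5 that rose were Runx2, Spp1, Ibsp, Comp and Matn2 and the 2 that fell were Sp7 and Acan, beside 21.9% and 18.9%. Sp7 is not among the expressed genes behind these shares. The median log2 change of the 9 members was 0.06, 0, 1.28 and 2.32 from day 2 to day 14, against -0.03, 0.05, 0.14 and 0.07 over the expressed genes. The medians of the last 2 days were the values of Chad and Ibsp, both near the floor, and with such genes at their bound the medians were 0 on days 2, 5 and 10 and 2.32 on day 14.

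**Figure D1:**
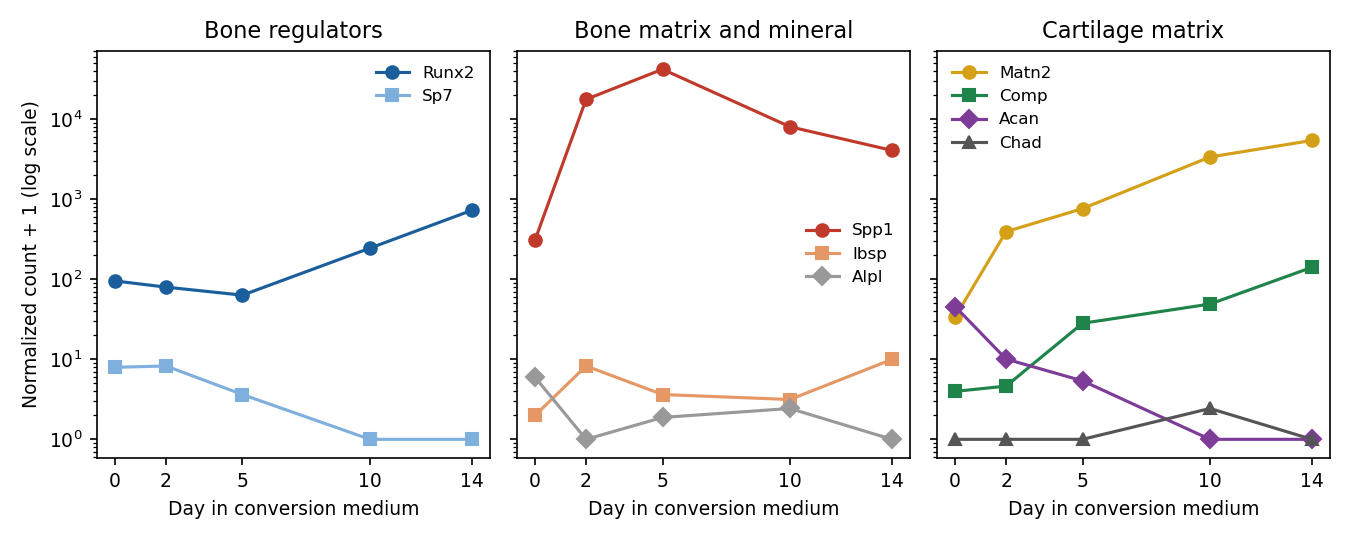
Normalized count plus 1 (log scale) of the 9 genes against the day in conversion medium, with 1 library per point. Spp1 was highest on day 5, Matn2, Comp and Runx2 on day 14 and Acan on day 0, while Sp7, Alpl, Ibsp and Chad stayed at or under 10 expected counts.

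Runx2 (ENSMUSG00000039153, chr17:44495987-44814797, minus strand, GRCm38) is the transcription factor on which osteoblast formation depends. Its normalized counts were 93.9 before the change of medium and 78.5, 62.1, 243 and 723 in the later libraries, in order of days. The first 3 libraries were low and close together, and the last 2 stood above all of them. On day 14 Runx2 was 7.69 times its day 0 level, a log2 change of 2.93 (2.64 to 3.27). The later steps were rises as well, of 1.95 (1.59 to 2.36) between days 5 and 10 and of 1.57 (1.39 to 1.76) between days 10 and 14. The values of days 2 and 5 were -0.26 (-0.83 to 0.26) and -0.59 (-1.06 to -0.14), within 2-fold of day 0, and on TPM values the day 5 change had the opposite sign, 0.099.

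The day 10 change of Runx2 was 1.36 (1.04 to 1.71), but it came to 0.32 once the median change of genes of like length was subtracted, and was then no longer over 2-fold. Runx2 is a long transcript, with a length of up to 6048 bases in the files, and the median change on day 10 was 1.04 among genes of its length class, 1 of 10 equal classes. On day 14 that median was 0.56 and Runx2 kept a change of 2.37 after it was subtracted. Runx2 overlaps Supt3 on the other strand, which had at most 112 expected counts in any library, and the antisense Runx2os1, which had at most 10. The strand setting of the count is not given in the sources used here, so reads from the shared stretch may belong to either gene.

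The other members of the Runx family followed other courses. Runx1, a regulator of blood and skeletal progenitors, had 101, 86.8, 114, 129 and 154 normalized counts from day 0 to day 14 and was within 2-fold of day 0 in every later library. Runx3 had 21.8 normalized counts on day 0 and 0 on day 2, at least 4.01-fold lower, and then 2.63, 5.82 and 13.3. Cbfb, the partner that lets Runx proteins bind DNA stably, was at 153 on day 0 and 201 on day 2, and rose to 311, 376 and 416 in the last 3 libraries, which is 1.43 (1.17 to 1.71) at the end.

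Sp7 (ENSMUSG00000060284, chr15:102356606-102367182, minus strand) acts after Runx2 in osteoblasts. Its expected counts were 7, 4, 3, 0 and 0 from day 0 to day 14. The gene was barely detected at the start and not detected in the libraries where Runx2 was highest. Against the floor it was at least 3.23-fold lower on day 10 and at least 2.58-fold lower on day 14, with intervals that reached up to -0.998 and -0.674 on the log2 scale, and a count of 0 allows a share of up to 0.772 and 0.892 per 1000000 in those libraries.

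Among 14 other regulators of the osteoblast lineage, 11 were expressed. Of these 2 rose and 3 fell on day 5, beside 17.1% and 12.9% of the expressed genes. On day 10, 4 rose and 4 fell, beside 26.5% and 21.8%, and on day 14, 3 rose and 3 fell, beside 21.9% and 18.9%. The median log2 change of the 11 was -0.13 on day 14, against 0.07 over the expressed genes. Bmp2, a secreted inducer of bone, rose most on day 5, from 7.92 to 92.8 normalized counts (3.39, 2.52 to 4.80). Mef2c, a transcription factor of muscle and of hypertrophic cartilage, went from 11.9 on day 0 to 93.6 on day 14 (2.88, 2.12 to 3.98). Bmp4 fell from 211 to 45.7 on day 10 (-2.18, -2.63 to -1.80), and Atf4, needed for amino acid supply and late osteoblast function, from 1629 to 422 (-1.95, -2.09 to -1.81).

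Spp1 (ENSMUSG00000029304, chr5:104435118-104441050, plus strand) encodes osteopontin, a secreted phosphoprotein that binds mineral and integrins. Its normalized counts were 309 at day 0 and then 17547, 41767, 7994 and 4055. All 4 later libraries stood above day 0, with a peak on day 5 and a decline after it. At the peak Spp1 was 135 times its day 0 level (7.08, 6.92 to 7.24), and on day 14 still 13.1 times (3.71, 3.55 to 3.89). Between days 2 and 5 the step was 1.25 (1.22 to 1.28), and between days 5 and 10 it was -2.39 (-2.42 to -2.36).

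Per length and library, Spp1 became the most abundant of all genes. Its TPM values, which are counts per gene length scaled to 1000000 per library, were 77.6, 3690, 17126, 4507 and 1865 from day 0 to day 14. Among all genes it took the places 1767, 38, 1, 8 and 53 in that order of days. It held 1.41% of all counts on day 5 and 0.00802% on day 0. In the same day 5 library Sp7, Alpl and Ibsp each had 3 expected counts or fewer.

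Markers of macrophages, which also make osteopontin, were higher than day 0 in the libraries where Spp1 was. The summed level of 14 macrophage markers was 311, 2415, 3866, 2054 and 1543 normalized counts from day 0 to day 14. Its peak on day 5 was that of Lyz2: without this gene, a choice made after the data were seen, the sum was 203, 1239, 1128, 647 and 569, highest on day 2. Of the 14 markers 7 were highest on day 2, 4 on day 5 and 3 on day 10. Of the 13 that were expressed, 12 rose on each of days 2 and 5, 10 rose on day 10 and 8 were still higher on day 14. Lyz2 rose from 108 to 2738 on day 5 and Cd68 from 30.7 to 314. Itgam rose from 61.9 on day 0 to 177 on day 2 and had fallen to 17.6 on day 5. Cx3cr1 had at most 3 expected counts in any library. Ptprc, the pan-leukocyte antigen, had 0 normalized counts on day 0 and at most 15.7 later. The part of these cells in the level of Spp1 was not tested.

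Osteoclasts, the bone-resorbing cells of the macrophage lineage, were looked at with 10 genes, whose summed level was 232, 414, 1019, 693 and 776 normalized counts. Of 6 expressed, 4 rose on day 5 (Acp5, Ctsk, Mmp9 and Atp6v0d2) and 3 on day 14, without Mmp9. Atp6v0d2, a proton pump subunit of osteoclasts and macrophages, had 0 counts on day 0 and was at least 33.0-fold higher on day 5. Calcr and Dcstamp, which mark mature and fusing osteoclasts, were at 0 counts in every library. The part of such cells in the level of Spp1 was not tested either. Tnfsf11 (RANKL), the signal that drives osteoclast formation, went from 2.97 normalized counts on day 0 to 43.8 on day 5 (3.50, 2.25 to 6.21), while its decoy receptor Tnfrsf11b stood at 21.5 and 19.2.

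**Figure D2:**
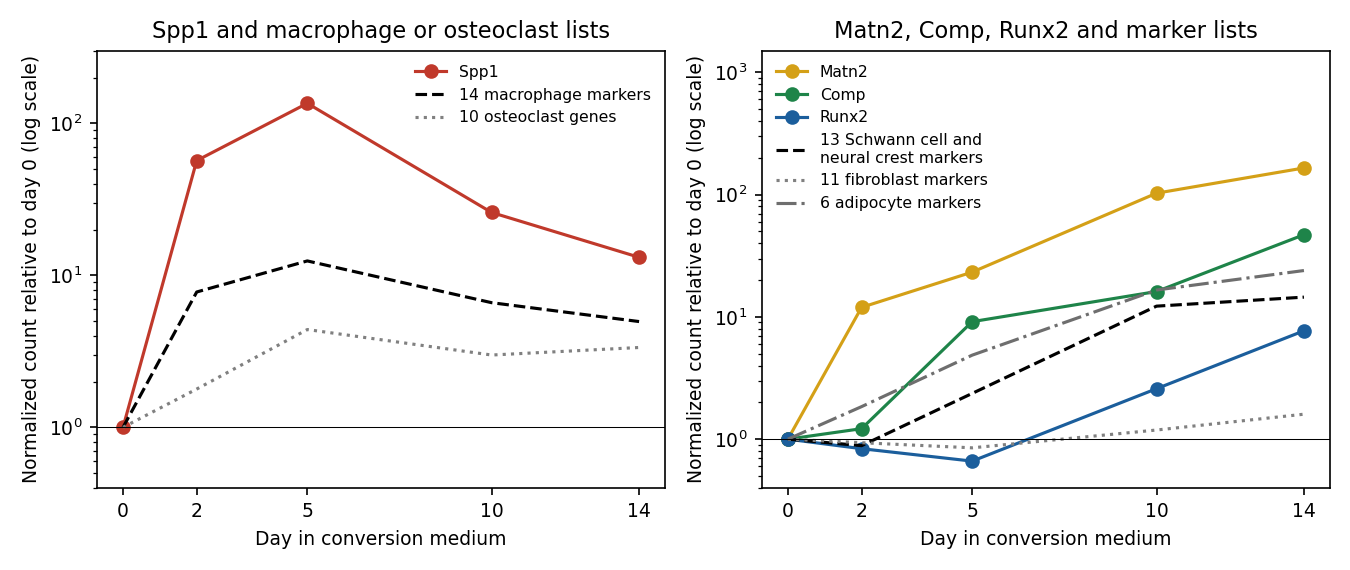
Normalized counts relative to day 0 (log scale) against the day in conversion medium, for Spp1 with summed macrophage and osteoclast lists (left) and for Matn2, Comp and Runx2 with summed Schwann cell and neural crest, fibroblast and adipocyte markers (right). Spp1 and the macrophage sum were both highest on day 5, the latter through Lyz2, and the Schwann cell and adipocyte sums were highest on day 14.

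The 8 receptor subunits that bind osteopontin did not follow it as a group. On each of days 5, 10 and 14, 2 of the 8 rose and 1 fell, with list medians of -0.51, -0.42 and -0.46. Itgb3, the subunit that pairs with Itgav to bind osteopontin, rose from 12.9 normalized counts on day 0 to 340 on day 2 (4.62, 3.92 to 5.66) and came back to 27.6 on day 14. Itga4 had its highest level on day 10, with 406 normalized counts after 24.8 on day 0 (3.98, 3.46 to 4.68). Of those that fell, Itgb1 went from 5819 to 2030 on day 2 (-1.52, -1.61 to -1.43), Itga5 from 1465 to 546 on day 10 (-1.42, -1.55 to -1.30) and Cd44 from 1528 to 651 on day 14 (-1.23, -1.36 to -1.10).

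Spp1 lies in a cluster of mineralized tissue genes on chromosome 5, and the cluster did not rise as a block. In order of position the cluster and its flanks read Sparcl1, Dspp, Dmp1, Ibsp, Mepe, Spp1 and Pkd2. Dspp and Mepe, genes of tooth and bone matrix, were at 0 counts in all 5 libraries. Dmp1, an osteocyte matrix protein, had 0 and 1 counts on days 0 and 2 and then 48.1, 28 and 41, at least 14.2-fold higher on day 5 and at least 12.3-fold on day 14. Sparcl1, an extracellular glycoprotein also made by astrocytes and vessels, rose from 4 expected counts on day 0 to 1135 on day 10 (7.35). Pkd2, a cation channel gene on the other side, had 146 normalized counts on day 0 and 706 on day 10 (2.27).

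Ibsp (ENSMUSG00000029306, chr5:104299171-104311469, plus strand) encodes bone sialoprotein, a nucleator of mineral. Its expected counts were 1, 4, 3, 3 and 10 from day 0 to day 14. It was near the limit of detection throughout and highest on day 14, at 9.03 times day 0 with a log2 interval from 0.36 to 8.61. Alpl (ENSMUSG00000028766, chr4:137741733-137796384, minus strand) encodes the tissue-nonspecific alkaline phosphatase. Its expected counts were 5, 0, 1, 2 and 0, with the most in MEFs before the change of medium, but the intervals of its changes on days 2, 5 and 10 included 0. Against the floor on day 14 it was at least 1.85-fold lower, with an interval that reached up to -0.02 on the log2 scale, almost no change. Bglap (osteocalcin), the late marker of osteoblasts, was as low, with 5.70 expected counts on day 0, at most 5.99 in the later libraries and 0 on days 2 and 14. Bglap2, the other osteocalcin gene of the list, had 0, 5.54, 6.83, 0 and 1 expected counts from day 0 to day 14.

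Of 19 other matrix and mineral genes of osteoblasts and osteocytes, 12 were expressed, and 6 of them rose and 0 fell on day 5. On day 10, 7 rose and 1 fell, and on day 14, 6 rose and 1 fell, with medians of 1.47 and 1.38 against 0.14 and 0.07 over all genes. The day 5 median was 2.05, or 1.78 with genes at 0 set to their bound. The genes that rose on day 5 were Dmp1, Phex, Enpp1, Ank, Mgp and Pdpn. Ank, which carries pyrophosphate and ATP out of the cell, rose from 58.4 to 706 normalized counts (3.57). Mgp, matrix Gla protein, an inhibitor of calcification, rose from 331 to 3817 (3.52, 3.36 to 3.69), and Pdpn, a membrane mucin of early osteocytes, lymphatic vessels and macrophages, from 83.1 to 805 (3.26, 2.95 to 3.62). Enpp1, which makes pyrophosphate, was at 19.8 on day 0 and 178 on day 5 (3.10, 2.50 to 3.91). Of the 6 that rose on day 5, Mgp, Enpp1 and Ank are known to hold mineral growth back, and no such role is given here for Dmp1, Phex and Pdpn. Slc20a1, a phosphate transporter, fell from 807 on day 0 to 107 on day 14 (-2.90, -3.20 to -2.63), and Sost was at 0 counts in every library.

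Acan (ENSMUSG00000030607, chr7:79053483-79115099, plus strand) encodes aggrecan, the large proteoglycan that gives cartilage its swelling pressure. Its normalized counts were 44.5 at day 0, then 9.05 and 4.38, and 0 on days 10 and 14. Day 0 stood above all later libraries. Acan fell by 2.18 on day 2 (-3.99 to -0.97) and by 3.08 on day 5 (-5.04 to -2.02). Against the floor it was at least 20.8-fold lower on day 10 and at least 16.6-fold lower on day 14, with intervals that reached up to -4.02 and -3.70. Type II collagen, its partner in cartilage, fell too, as Col2a1 went from 600 normalized counts on day 0 to 157, 25.4, 6.21 and 2.68 (-7.35 on day 14, -10.09 to -6.25).

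The other large proteoglycans of the lectican family did not share this course. Vcan, versican of embryonic and wound matrix, fell from 636 to 152 normalized counts on day 2 (-2.06, -2.41 to -1.74) and stood at 813 on day 10 and 662 on day 14. Ncan, a brain lectican, had 1 count on day 0 and 10.0 normalized counts on day 10, and Bcan had at most 9 expected counts. Of 5 genes for proteases that cut aggrecan, 3 rose on day 5, 4 on day 10 and 3 on day 14, beside 17.1%, 26.5% and 21.9% of the expressed genes. Adamts15 had 0.99 normalized counts on day 0 and 333 on day 10 (7.39, 5.91 to 13.70), Adamts4 rose from 3.96 to 96.5 on day 14 (4.30, 3.21 to 6.51) and Adamts1 from 442 to 1206 (1.44, 1.29 to 1.60). Adamts5 fell from 512 to 203 on day 5 (-1.33, -1.56 to -1.11) and was back at 520 on day 14.

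Comp (ENSMUSG00000031849, chr8:70373558-70382066, plus strand) is the fifth thrombospondin, a matrix protein of cartilage and tendon. Its normalized counts were 2.97 at day 0 and 3.62, 27.1, 47.8 and 139 afterwards. It was at the floor in the first pair of libraries and higher in each later one. With 3 expected counts on day 0, the day 14 level was 47.0 times day 0 with a wide interval, from 3.98 to 7.85 on the log2 scale around a change of 5.15. Its steps between later libraries rest on more counts and were 0.80 (0.18 to 1.48) between days 5 and 10 and 1.52 (1.12 to 1.98) between days 10 and 14.

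Comp did not move with the other thrombospondins as a family. Thbs2, an inhibitor of vessel growth, rose from 426 normalized counts on day 0 to 3063 on day 10 (2.84, 2.70 to 2.99), whereas Thbs1 fell from 8138 to 723 on day 5 (-3.49, -3.60 to -3.39) and stayed near that level. Thbs3 was within 2-fold of day 0 throughout, between 93.0 and 163 normalized counts. Thbs4 had its highest level on day 5, with 75.3 after 15.8 on day 0 (2.18, 1.47 to 3.12). Among 8 tendon genes 3 rose and 3 fell on day 14, beside 21.9% and 18.9% of the expressed genes. Scx, the transcription factor of tendon progenitors, was at 55.4 normalized counts on day 0, 128 on day 2 and 8.94 on day 14. Tnmd fell from 120 to 15.0 on day 10 (-2.92, -3.74 to -2.32) and Fmod from 250 to 47.0 on day 2 (-2.39, -3.05 to -1.83). Tnc, an extracellular protein of developing tendon and of neural stem cell niches, rose from 2797 to 13832 on day 14 (2.31, 2.25 to 2.36), and Egr1 from 1467 to 3059 (1.06, 0.97 to 1.15).

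Matn2 (ENSMUSG00000022324, chr15:34306677-34436273, plus strand) encodes matrilin-2, a filament-forming adaptor of the matrix. Its normalized counts were 32.7 at the start and 391, 759, 3351 and 5392 in the later libraries. Each library stood above the one before it. On day 14 Matn2 was 165 times day 0 (7.32, 6.88 to 7.91), and its steps were 0.96 (0.74 to 1.18), 2.14 (2.04 to 2.25) and 0.69 (0.63 to 0.74) between days 2, 5, 10 and 14. Its TPM values were 3.26, 32.4, 123, 749 and 984, and its place among all genes went from 9492 on day 0 to 121 on day 14.

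The 4 matrilins stood far apart. Matn1 and Matn3, which are made almost only by cartilage, had at most 2 and at most 1 expected counts in any library. Matn4, which like Matn2 is found in many tissues, had 5.94, 41.6, 117, 633 and 300.3 normalized counts from day 0 to day 14. Its change on day 10 was 6.51 (5.61 to 8.19), and it differed from Matn2 in being highest on day 10.

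Markers of Schwann cells and neural crest, cells in which Matn2 is also made, were higher late in the series, as Matn2, Comp and Runx2 were, but not day by day. Their summed level over 13 genes was 861, 762, 2038, 10537 and 12485 normalized counts from day 0 to day 14. Of the 13, 3 rose and 1 fell on day 2, when Matn2 had already risen, 9 rose on day 5, when Runx2 stood at -0.59, and 12 and 11 rose on days 10 and 14. Sox10, the defining transcription factor of that lineage, went from 6.93 to 1993 normalized counts on day 14 and Ngfr from 34.8 to 4039, while Fabp7 was at 23.8 and 16.1. Markers of fat cells rose too, with a sum over 6 genes of 186, 343, 904, 3083 and 4449, of which 5 rose on days 10 and 14, Adipoq from 0 counts to 236 normalized counts. In smooth muscle and pericyte markers the sum of 7 genes fell from 51008 on day 0 to 1159 on day 14. The part of any of these cells in the levels of Matn2, Comp and Runx2 was not tested.

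**Figure D3:**
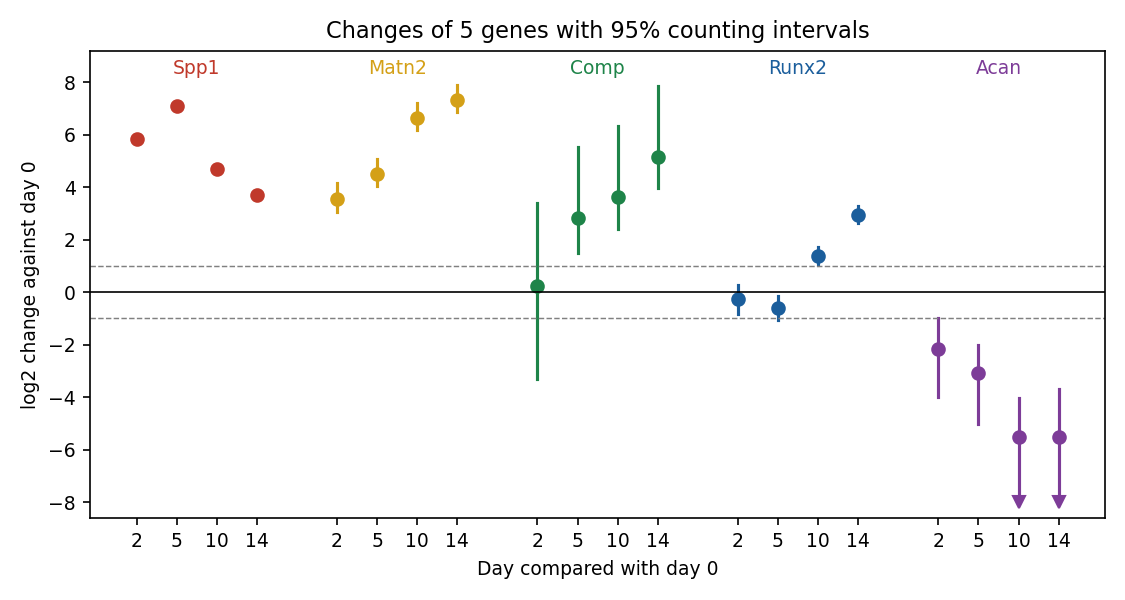
Log2 change against day 0 of Spp1, Matn2, Comp, Runx2 and Acan on days 2, 5, 10 and 14, with bars for the 95% counting intervals, dashed lines at 2-fold and arrows where the interval has no lower end because the count was 0. Spp1 peaked at 7.08 on day 5, Matn2 reached 7.32 on day 14 and Acan lay below 0 on all 4 days.

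Chad (ENSMUSG00000039084, chr11:94565047-94569127, plus strand) encodes chondroadherin, a leucine-rich protein that attaches chondrocytes to their matrix. It had 2 expected counts on day 10 and 0 in the other 4 libraries. It was not detected beyond the floor of 3 counts, and no fold is given. Its gene overlaps Acsf2 on the other strand, which had up to 177 expected counts, so even these 2 reads cannot be placed with certainty. Chadl, a related leucine-rich gene of cartilage, was higher, with 4.09 normalized counts on day 0 and 68.0 on day 10 (3.76, 2.70 to 6.00).

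Of 18 other cartilage matrix genes in the files, 12 were expressed. Of these 4 rose and 2 fell on day 5, 4 rose and 1 fell on day 10, and 4 rose and 2 fell on day 14. Their median was 1.08 on day 5, 1.44 on day 10 and 0.99 on day 14, or 0.70, 1.00 and 0.73 with genes at 0 set to their bound. The genes that rose on days 10 and 14 were Matn4, Cnmd, Prg4 and Chadl. Cnmd, chondromodulin, which keeps vessels out of cartilage, had 0, 0, 1, 120 and 61 expected counts and was at least 28.9-fold higher on day 10. Prg4, the lubricant of joint surfaces, rose from 22.3 to 507 normalized counts on day 5 (4.45, 3.93 to 5.23). The fibrillar collagens of cartilage went down or stayed near day 0: beside Col2a1, Col11a1 fell from 238 to 83.2 on day 2 (-1.51, -2.01 to -1.06) and stood at 143 on day 14.

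The regulators of chondrocytes did not move as a group. Of 9 expressed, 2 rose and 1 fell on day 5, 4 rose and 1 fell on day 10, and 1 rose and 0 fell on day 14, with medians of 0.53, 0.15 and 0.50. Sox9, the defining factor of chondrocytes and also of glial and crest cells, had 60.4, 103, 87.5, 59.3 and 65.3 normalized counts and was within 2-fold of day 0 in every library. Sox6, its partner in cartilage and a factor of neural precursors, rose from 11.9 to 174 on day 10 (3.77, 3.04 to 4.85), and Trps1 from 47.5 to 145 (1.59, 1.15 to 2.09). In the hypertrophic stage of cartilage, Col10a1, its defining collagen, fell from 56.4 on day 0 to 3.58 on day 14 (-3.65, -5.90 to -2.54). Mmp13, the collagenase of hypertrophic cartilage, osteoblasts and macrophages, rose from 6.93 to 743 normalized counts on day 10 (6.55, 5.70 to 8.06).

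**Figure D4:**
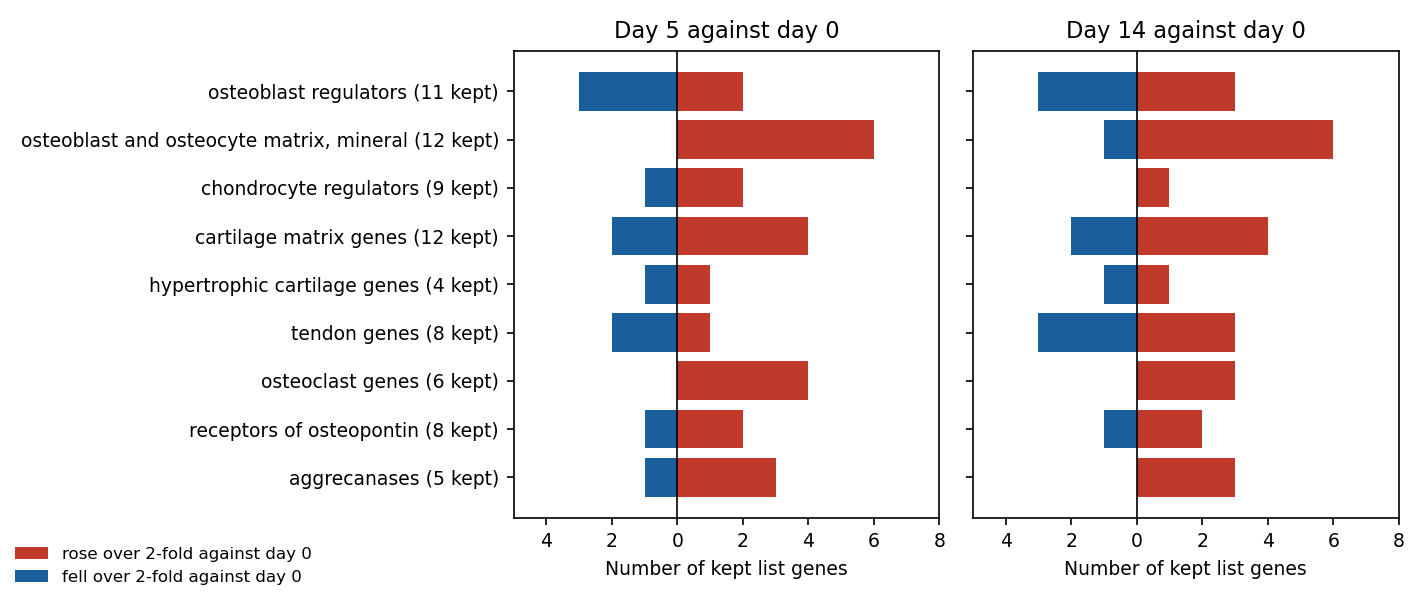
Number of genes in each skeletal list that rose (red, to the right) or fell (blue, to the left) on day 5 and on day 14 against day 0, with the number of expressed list genes in brackets. The matrix and mineral list had 6 genes that rose on both days, and osteoblast regulators had 3 that rose and 3 that fell on day 14. Of all expressed genes 17.1% rose and 12.9% fell on day 5, and 21.9% and 18.9% on day 14.

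Per gene length, Spp1 was the highest of the 9 in every library. On day 0 it stood at 77.6 TPM (69.3 to 86.8, exact Poisson 95% interval), and the other 8 members were at or under 5.59. Among these the order was Runx2, Matn2, Acan, Sp7, Alpl, Comp, Ibsp and Chad, and each neighbour down to Ibsp overlapped the next in its interval. By day 14 the order was clear for the first 5, with Spp1 at 1865, Matn2 at 984, Runx2 at 80.5, Comp at 37.2 and Ibsp at 2.80, none of which overlapped its neighbour, and the other 4 at 0. On day 5 Comp at 6.45 and Runx2 at 6.06 could not be separated, and by day 10 Runx2 at 32.7 (29.3 to 36.4) stood above Comp at 15.6 (12.1 to 19.8).

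The genes with the profile nearest to a member were ranked by the Euclidean distance between their log2 changes on days 2, 5, 10 and 14, over 8255 genes that reached 100 expected counts in any library. Nearest to Runx2 were Rubcn (0.41), Egr2 (0.57) and Tubb2b (0.80). Egr2, a transcription factor of myelinating Schwann cells, went from 22.8 normalized counts on day 0 to 162 on day 14, and Tubb2b, a neuronal tubulin, from 801 to 4396. Nearest to Spp1 were Prl2c3 (1.61), Ugt1a8 (1.81) and Ms4a7 (2.07), the last a macrophage membrane gene that went from 1.56 to 98.5 on day 5. Prl2c3 and Ugt1a8 belong to multigene families whose reads can be split between copies. Both had 0 normalized counts on day 0, where Spp1 had 309, so the distances of these low genes depend on the added 1. Nearest to Comp were Spon1 (0.72), Akap6 (0.82) and Gldn (0.82), of which Gldn, a Schwann cell protein of the nodes of Ranvier, went from 14.8 to 746 on day 14. Nearest to Matn2 were Arhgap20 (0.92), Hp (0.98) and Ces1d (1.05), and all 3 had at most 0.99 normalized counts on day 0. A cell type is named here for only some of these genes, and not for Rubcn, Spon1 or Arhgap20, the nearest to Runx2, Comp and Matn2. Which cells made these RNAs was not tested.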

How the data were processed

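Total RNA of 5 MEF cultures, 1 for each time point, had been sequenced from Illumina TruSeq libraries. The authors deposited, for each library, RSEM expected counts per gene, which are estimated and not always whole, without scaling for library size. The authors deposited TPM values in the same files, divided by gene length and scaled to 1000000 per library, and FPKM values, which were used for no result. The submitters' processing notes name Bowtie, RSEM and the build mm10, with no versions, and the annotation, filters and strand setting are not given in the sources used here. The files held 0 columns of other samples.

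GENCODE M21 (GRCm38) supplied the symbols and coordinates by identifier, for 27247 of 27729 genes, and the 482 others held 0.359% of the counts. Library sizes were computed from rounded expected counts by TMM (edgeR 4.0.16, R 4.3.3), with totals between 2253716 and 3890310, divided by these sizes and scaled to their geometric mean. Changes are log2 ratios with a pseudocount of 1. The background was the 13346 expressed genes, those that reached 10 expected counts in any library. Intervals are exact Clopper-Pearson (ratios) or Poisson (TPM) intervals at 95% and cover counting error only. Promoter sequences came from RefSeq (GRCm38.p6).

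The 9 genes and all lists were chosen with earlier results of these data known, and Comp, Matn2 and Spp1 are also in gene clusters that the study had picked from these libraries. Named were all members, their gene families, their chromosomal neighbours, from each list up to 3 genes that changed most in each direction and reached 100 expected counts in any library, defining markers at or near 0, and the 3 nearest profiles. Single values of some list genes are not reported here. Other genes given as examples of a list (such as Phex, Enpp1, Trps1, Chadl and Scx) were chosen after their values were seen. The alternatives were other library sizes (DESeq2 1.42.0 size factors, total counts, quantile normalization, TMM over the libraries compared or over filtered genes, sizes without Gm42418 and Lars2), TPM values, pseudocounts of 0.5 and 5, a correction within 10 classes of gene length, thresholds of 1.5-fold and 4-fold, and stricter filters. The computation was also run on simulated counts, with libraries as large as the real ones. There, 200 of 200 genes changed 4-fold were called on each day, and between 1.27% and 2.07% of unchanged genes were called. The changed genes were drawn only from the more abundant genes, those above a minimum mean count in every library. The result for changed genes therefore does not show how members with few counts, such as Sp7, Alpl, Ibsp and Chad, would be called. Spread between cultures could not be measured, so the run is a check of the computation and not of the members' changes. Python 3.11.15 was run with scipy 1.17.1, numpy 2.4.6 and pandas 2.3.3, and figures were drawn with matplotlib 3.10.9.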

Additional observations from a re-analysis of the deposited data

How the results depend on the processing

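Each time point had 1 library, so no spread between cultures can be set against any change, and no replicate could be left out. In the set of values under the alternatives that consisted mostly of the members' single changes, 584 moved little and 69 moved further. For a member's change, moving little meant by less than its counting interval. In 1 more, whose main interval excluded 0, the sign changed: Runx2 on day 5, at -0.59 with normalized counts and 0.099 with TPM values. After the median TPM change of all genes was subtracted, that change was -0.51. Another 7 values changed sign, over 4 changes whose main intervals held 0: Comp and Sp7 on day 2, Runx2 from day 2 to 5 and Ibsp from day 5 to 10. TPM values shifted the median of all genes by -0.17, 0.56, 0.95 and 0.72 on days 2, 5, 10 and 14, total counts by up to 0.46, and quantile normalization by up to -0.13. Of the counts and medians over the 9 members and the background shares, 140 stayed close to the main value and 16 moved. The number of members over 2-fold below day 0 was 2 on day 2 and 3 on each later day, and it came to 1 on all 4 days with TPM values and with only members of 10 or more counts, and to 1 on days 2 and 5 with a pseudocount of 5. Where the whole interval had to lie beyond 2-fold it was 0 on day 2 and 1 on days 5, 10 and 14. A 4-fold threshold gave 1 member below on day 5 and 3 in place of 5 above on day 10. The members lost below day 0 were Sp7 and Alpl, with 7 counts or fewer, and Acan on day 2 with 5 counts, and above day 0 they were Runx2, Chad and Ibsp. Depth limits Sp7, Alpl, Ibsp and Chad in all libraries, since 3 counts are between 0.771 and 1.33 per 1000000. No paired analysis was possible because each group had 1 library.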
